A study of Mus musculus with 2 samples.

Results

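The genes described here are 10 that encode actin and proteins handling it: Actb, Actg1, Tmsb4x, Tmsb10, Cfl1, Pfn1, Myl6, Myl12a, Tagln2 and Anxa2. They were chosen by name, with earlier results of these data known, so counts of them set beside all genes are description only. All 10 are among the 15169 genes of the deposited single-cell table. The cells come from 2 mouse kidneys. The IRI library is from a wild-type C57BL/6 mouse of 9 weeks whose kidney underwent ischaemia-reperfusion injury, in which the blood supply is cut off for a while and let back in, and which also lost its opposite kidney to surgery. The control library is from a wild-type C57BL/6 mouse of 9 weeks whose kidney is called normal, and no nephrectomy is named for it. The IRI mouse had both procedures, so effects of ischaemia and of nephrectomy cannot be told apart, and the labels give no time after injury.

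Actin exists as single molecules and as filaments, and cells move between these forms when they change shape, spread or crawl. Beta-thymosins hold single actin molecules in reserve, profilin passes them to growing filaments, and cofilin cuts old filaments apart. In the proximal tubule, actin filaments form the core of the brush border, the dense lawn of microvilli through which the tubule takes up filtered solutes, and this lawn is known to be lost in ischaemic injury.

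Each group is a single library, so the variation among animals was not measured, nothing was tested, and every difference below describes these 2 libraries. The IRI library held 5170 cells with a median of 1888.5 raw UMIs (counted molecules), and the control library 6589 cells with a median of 2344. The table has depth-corrected counts, not raw ones. Among 1567 proximal tubule cells with fewer than 700 raw UMIs no cell was listed at 0 for Actb, Actg1, Pfn1 or Myl6, whereas 1482 were at 0 for Tmsb10 and 1546 for Anxa2. Levels of the abundant members in shallow cells therefore carry a floor. For the proximal tubule and for all macrophages together, values for cells with at least 2000 raw UMIs are given as well. Of 11759 cell barcodes, 55 occurred in both libraries. The defining markers of the deposited cell types were higher in the type than in other cells for every marker of TAL, DCT/CNT, CD-IC, vasculature, myofibroblasts, resident macrophages, T cells and B cells in both libraries. Of 10 proximal tubule markers, 5 to 10 were higher in each segment, 5 in injured proximal tubule and only 3 in IRI proliferating proximal tubule, though all 10 were above 0 in each of these types. Of 5 thin limb markers 4 were higher in tDL of both libraries. Levels are means of the corrected count per cell. A log2 ratio has 0.05 added to each mean, which draws scarce genes toward 0, and a gene was counted as higher or lower from a 2-fold ratio on that scale.

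Across the cell types, 7 of the 10 genes had their highest mean in an immune type. Among 31 groups of at least 20 cells, Actb, which encodes beta-actin, was at 21.1 in IRI Ccr2+ macrophages, 18.2 in IRI neutrophils and 14.8 in control Ccr2+ macrophages. Its lowest group other than red blood cells was control PT-S3 at 1.54. Tmsb4x, the thymosin of most blood cells, had the same leading type, with 67.7 in IRI and 59.0 in control Ccr2+ macrophages, and came down to 0.128 in control PT-S1. Tmsb10, its close relative, was ordered differently. It was highest in T cells, with 21.4 in the IRI and 18.2 in the control library, and neutrophils of the IRI library had only 0.509 although their Tmsb4x was 41.2.

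**Figure D1:**
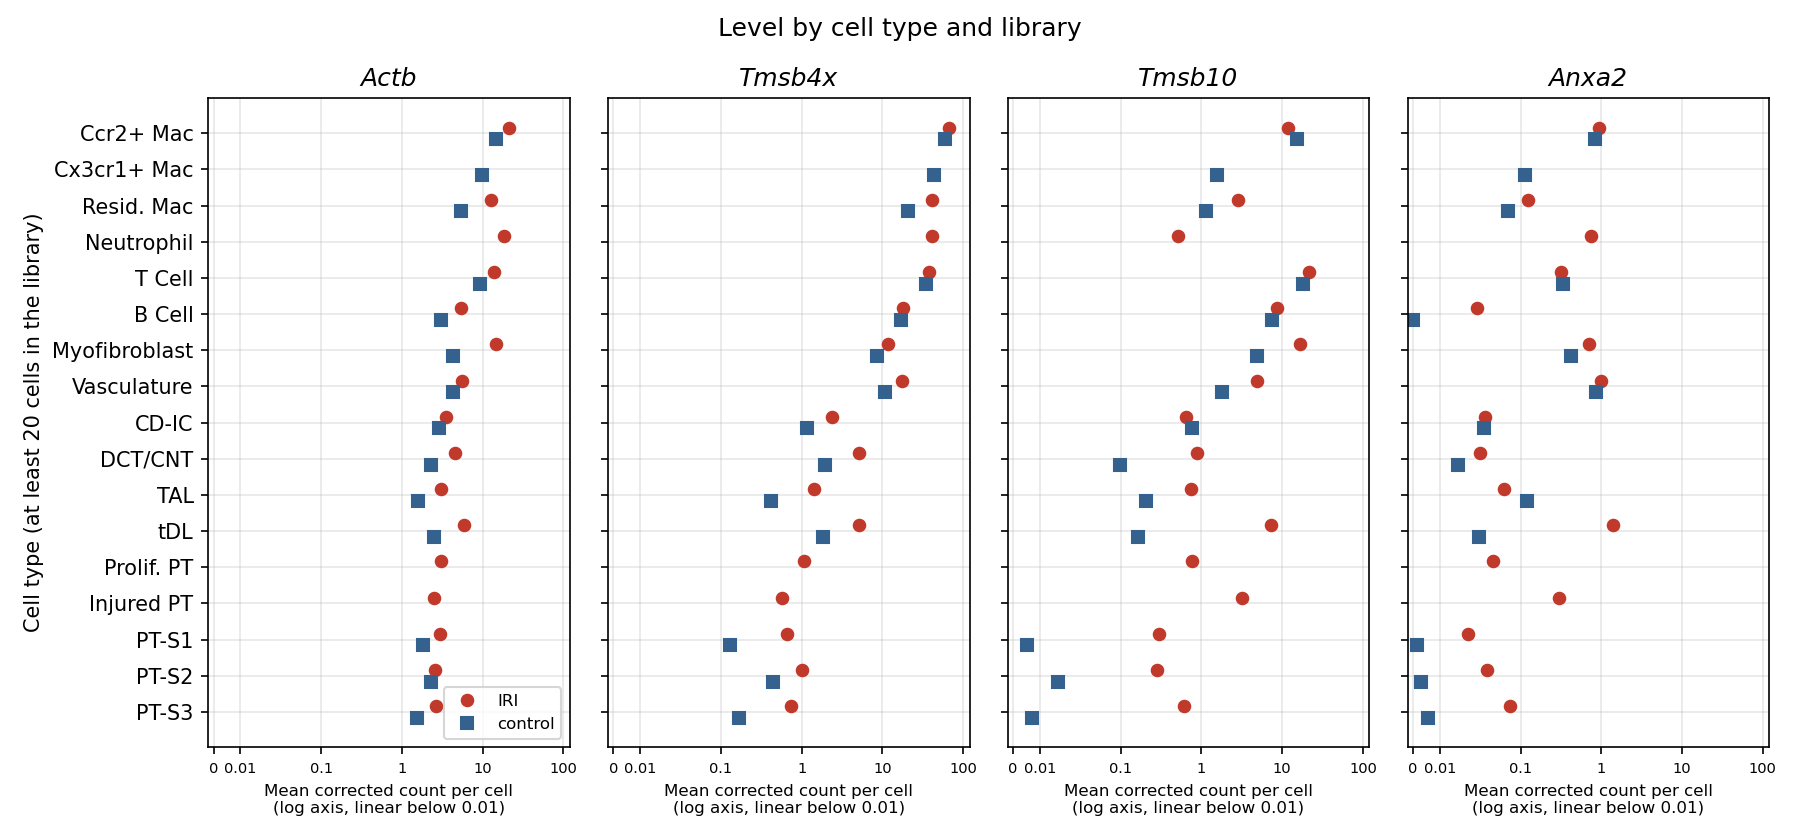
Mean corrected count per cell (x axis, logarithmic above 0.01) of Actb, Tmsb4x, Tmsb10 and Anxa2 in each cell type (y axis), with IRI as circles and control as squares; groups of fewer than 20 cells are left out. Tmsb10 in PT-S1 to S3 lies between 0.285 and 0.604 in the IRI library and between 0.005 and 0.0169 in the control library.

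Cfl1, encoding cofilin, and Pfn1, encoding profilin, also peaked in IRI Ccr2+ macrophages, at 4.04 and 6.95. The myosin light chain genes had another order. Myl6, the essential light chain of smooth-muscle and non-muscle myosin, was highest in control myofibroblasts at 7.0, with 4.51 in IRI myofibroblasts and 3.59 in IRI vasculature. Myl12a, a regulatory light chain, was likewise highest in control myofibroblasts at 2.03. Anxa2, a calcium-dependent protein that ties actin to membranes, was highest in the IRI thin descending limb (tDL) at 1.39. Tagln2, a filament-binding relative of calponin, peaked in IRI T cells at 1.04 and IRI Ccr2+ macrophages at 1.01, so close that no order is read. Counting all 10 genes, their Pearson correlation with their common average over the 31 groups ran from 0.662 for Myl6 to 0.938 for Actb. These groups share 2 libraries, and depth differs among them.

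In the proximal tubule segments PT-S1 to S3, which held 3261 IRI and 4827 control cells, Actg1, Tmsb4x and Tmsb10 were at least 2-fold higher in the IRI library. The other 7 members were within 2-fold. Over all 11940 measured genes 0.41% were 2-fold higher and 0.762% 2-fold lower, and among the 529 genes with a mean of at least 0.5 in the higher library 2.08% were 2-fold higher. The members' median log2 ratio was 0.50, beside -0.01 over all measured genes.

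The actin genes differed from each other. Actg1, which encodes gamma-actin, averaged 1.91 in IRI and 0.895 in control proximal tubule cells, a log2 ratio of 1.05. Actb averaged 2.72 in IRI and 2.0 in control cells, a log2 ratio of 0.43. In cells with at least 2000 raw UMIs Actg1 was at 2.09 in 1534 IRI cells and 0.804 in 2785 control cells, and Actb at 2.77 and 1.90 in the same IRI and control cells. Gamma-actin's share of both actin genes' counts was 41.2% in IRI and 30.9% in control proximal tubule. By segment, the Actg1 log2 ratio was 0.81 in PT-S1, 0.95 in PT-S2 and 1.02 in PT-S3, so only PT-S3 passed the 2-fold limit alone. With the 8 segment clusters weighted equally it was 0.81.

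Tmsb10 had the largest ratio of the members. It averaged 0.366 in IRI proximal tubule cells and 0.0124 in control cells, which held 60 corrected counts in all, a 29.4-fold ratio and a log2 ratio of 2.74. It was above 0 in 17.9% of IRI cells (16.6 to 19.3, exact Clopper-Pearson 95% interval) and in 0.849% of control cells (0.610 to 1.15), at median depths of 1819 and 2738 raw UMIs. These intervals cover counting error only. Red blood cells, which should lack it, set no useful background: Tmsb10 was above 0 in 0 of 35 such control cells (limit 8.57%, from 3 counts), and the IRI library held only 4 red blood cells. The background share was thus not measured in either library. By segment, Tmsb10 was at 0.297, 0.285 and 0.604 in IRI PT-S1, PT-S2 and PT-S3, and at 0.005, 0.0169 and 0.00693 in the control segments in that order. It was higher in the IRI library in all 8 proximal tubule clusters with at least 20 cells from each library, with 0.0556 to 0.649 in IRI and 0 to 0.0256 in control cells. Actg1 and Tmsb4x were also higher in all 8. These segments and clusters come from the same pair of libraries, and the share of all genes higher in each of them was not counted. Cells of every depth showed the Tmsb10 difference: in those with at least 4000 raw UMIs, 904 IRI cells averaged 0.324 and 1918 control cells 0.00313.

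**Figure D2:**
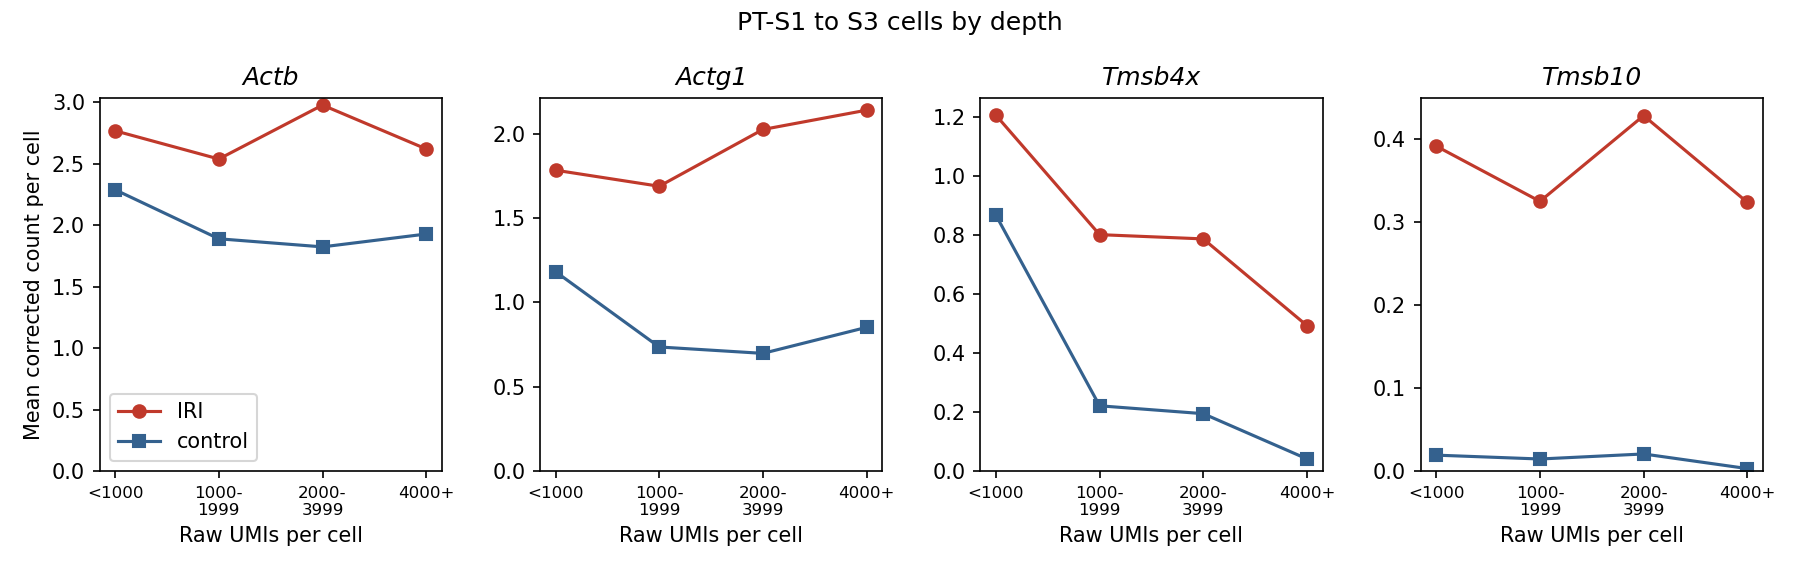
Mean corrected count (y axis, from 0) of Actb, Actg1, Tmsb4x and Tmsb10 in PT-S1 to S3 cells grouped by raw UMIs per cell (x axis), with IRI as circles and control as squares. IRI lies above control in each depth group, and control Tmsb4x is at 0.868 in the shallowest and 0.0417 in the deepest cells.

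Tmsb4x averaged 0.841 in IRI and 0.318 in control proximal tubule cells, a log2 ratio of 1.27. Its level moved with depth, from 1.21 in the shallowest to 0.493 in the deepest IRI cells and from 0.868 to 0.0417 in control cells. In cells with at least 2000 raw UMIs it averaged 0.614 in IRI and 0.0894 in control cells, a log2 ratio of 2.25. Immune cell transcripts also differed between the libraries. The summed mean of 29 immune marker genes was 0.556 in IRI proximal tubule, with 26 of them above 0, and 0.165 in control, with 21 above 0 and the T cell gene Cd3e at 0. Per unit of these markers, Tmsb4x stood at 1.51 in IRI and 1.93 in control proximal tubule, and at 1.16 in IRI and 1.49 in control immune cells. The same quotient for Tmsb10 was 0.658 in IRI proximal tubule against 0.190 in IRI immune cells, and 0.0754 in control proximal tubule against 0.245 in control immune cells. After each library's mean, scaled to the immune markers, was subtracted, the log2 ratio was 1.73 for Tmsb4x and 2.17 for Tmsb10. This subtraction left no control Tmsb10 and almost no control Tmsb4x, and took away most of the IRI Tmsb4x. Both ratios are therefore set largely by the 0.05 added to each mean, and no size is read from them. The immune markers follow immune RNA only, and the part of RNA from other types was not tested.

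Cfl1 averaged 0.727 in IRI and 0.732 in control proximal tubule, and Pfn1 1.28 in IRI and 1.29 in control, so the turnover genes were level over the segments as a whole. In cells with at least 2000 raw UMIs Pfn1 was at 1.04 in IRI and 1.20 in control cells. Myl6 was at 1.73 in IRI and 1.64 in control cells over all depths, and at 1.52 in IRI and 1.53 in control cells with at least 2000 raw UMIs. Myl12a stood at 0.164 in IRI and 0.177 in control cells. Tagln2 was at 0.290 in IRI and 0.180 in control cells, a log2 ratio of 0.56. Anxa2 was scarce, with 0.0423 in IRI and 0.00352 in control cells, a log2 ratio of 0.79 that rests on 17 control counts. It was above 0 in 3.34% of IRI cells (2.75 to 4.02) and 0.228% of control cells (0.114 to 0.407).

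Of the proximal tubule segments, PT-S3, the last and straight one, had the most members past 2-fold. There 5 of 10 members were at least 2-fold higher in the IRI library and none was lower, beside 1.09% higher and 2.35% lower of all measured genes. Among the 559 genes with a mean of at least 0.5 in the higher library, 5.37% were 2-fold higher. The 5 members were Tmsb10 (log2 ratio 3.52), Tmsb4x (1.84), Anxa2 (1.17), Tagln2 (1.16) and Actg1 (1.02), and Cfl1 and Pfn1 had 0.71 and 0.78. The libraries lay mostly in different clusters there, since cluster 3 held 727 of the 790 IRI and 127 of the 1442 control cells. Within cluster 3 all measured genes were 1.33% higher and 0.91% lower. Actg1 and Tmsb4x stayed past 2-fold there, with log2 ratios of 1.32 and 1.39. Tmsb10 was at 0.649 and Anxa2 at 0.0812 in IRI cells of cluster 3, and both were listed at 0 in its control cells. Tagln2 was no longer past 2-fold, with 0.63, and Cfl1 and Pfn1 had 0.57 and 0.20. PT-S1 and PT-S2 each had Tmsb4x and Tmsb10 alone past 2-fold and no member lower. All measured genes gave 0.677% higher and 0.425% lower in PT-S1, and 0.234% higher and 0.996% lower in PT-S2. Median depth in PT-S3 was 2338.5 raw UMIs in IRI and 4507.5 in control cells.

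**Figure D3:**
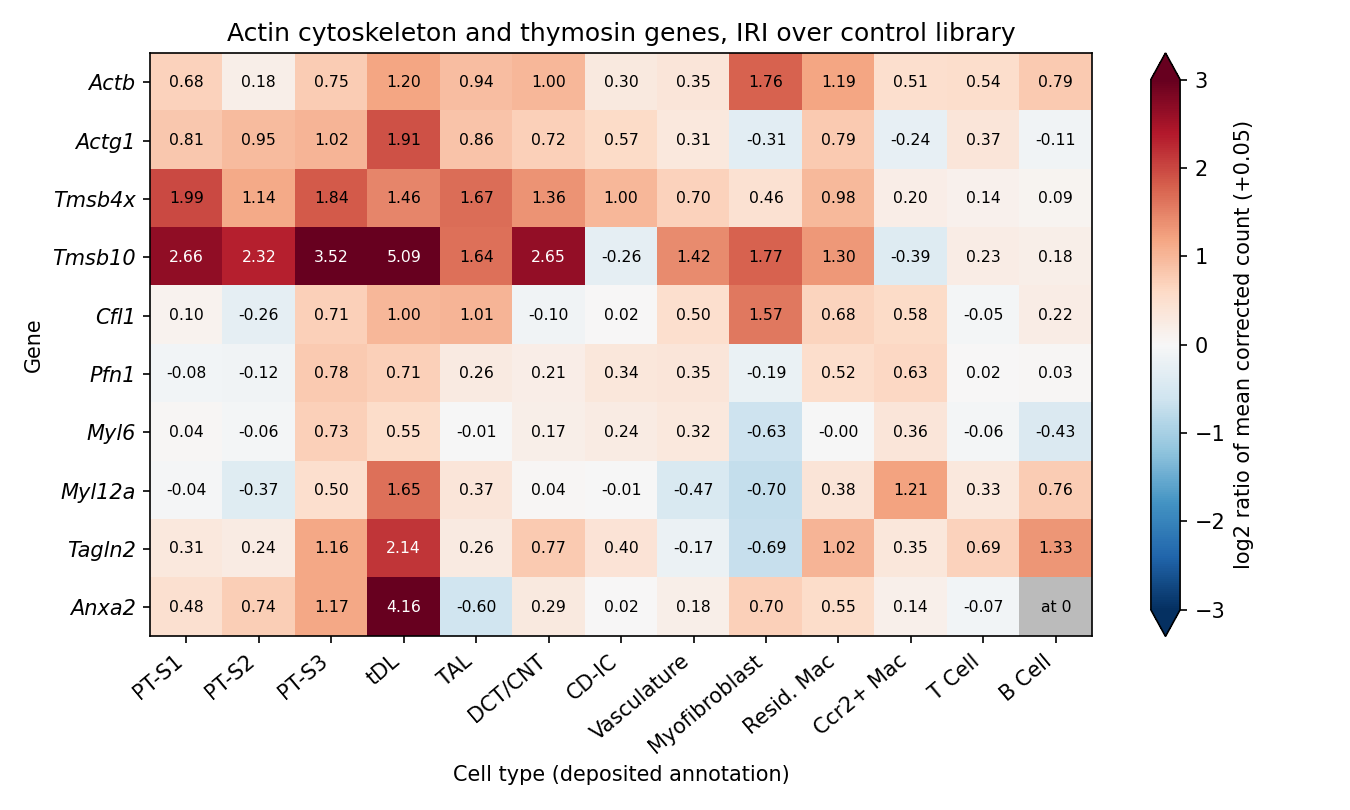
log2 ratio of the mean corrected count, IRI over control, for each gene (rows) and cell type (columns), with 0.05 added to each mean; red is higher in IRI, blue lower, and grey a gene listed at 0 in control. The highest values are 5.09 for Tmsb10 and 4.16 for Anxa2, both in tDL, followed by 3.52 for Tmsb10 in PT-S3, and T cells stay between -0.07 and 0.69. Anxa2 in DCT/CNT and CD-IC is drawn although it had too few counts to be measured there.

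Cells named injured proximal tubule, 135 in the IRI library, were set against PT-S1 to S3 of the same library, which share its source. Spp1, a gene induced in damaged tubule, was at 38.4 in the injured type and 5.62 in PT-S1 to S3, and Havcr1, encoding kidney injury molecule 1, at 1.33 and 0.0761. Tmsb10 and Anxa2 were at least 2-fold higher in the injured type and no member was 2-fold lower, beside 2.41% higher and 1.48% lower of all measured genes. Among the 495 genes with a mean of at least 0.5 in the higher group, 12.7% were 2-fold higher, so the count of members is not read as a result. Tmsb10 averaged 3.17 in injured and 0.366 in PT-S1 to S3 cells, a log2 ratio of 2.95. It was above 0 in 64.4% of injured cells (55.8 to 72.5), at a median depth of 8267 raw UMIs, and in 14.0% of IRI PT-S1 to S3 cells with at least 4000 raw UMIs. Anxa2 averaged 0.304 in injured and 0.0423 in PT-S1 to S3 cells, a log2 ratio of 1.94.

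Depth differed between these types, so the deeper cells were compared as well. With at least 2000 raw UMIs, Tmsb10 averaged 3.0 in 128 injured cells and 0.367 in 1534 PT-S1 to S3 cells, and Anxa2 0.312 in injured and 0.0385 in PT-S1 to S3 cells. The immune marker sum was 0.578 in injured cells and 0.556 in PT-S1 to S3 cells, with 10 of 29 markers above 0 and Cd3e, Cd79a, C1qa and Cd68 at 0 in injured cells. Tmsb10 per unit of these markers was 5.49 in injured cells and 0.190 in IRI immune cells. These markers do not follow RNA of other types with much Tmsb10, such as IRI tDL at 7.17 and IRI myofibroblasts at 16.6. The part of such RNA was not tested.

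The actins and the turnover genes did not share that pattern. Actb averaged 2.50 in injured and 2.72 in PT-S1 to S3 cells of the IRI library, and Actg1 2.43 and 1.91 in the same types. Cfl1 was at 0.681 in injured and 0.727 in PT-S1 to S3 cells. Pfn1 was at 0.622 in injured and 1.28 in PT-S1 to S3 cells, a log2 ratio of -0.98 just inside the 2-fold limit, and at 0.633 and 1.04 in the deeper cells. Tmsb4x averaged 0.570 in injured and 0.841 in PT-S1 to S3 cells, but 0.562 and 0.614 in the cells of these types with at least 2000 raw UMIs.

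The balance of both thymosin genes differed widely between these tubule groups. Tmsb10 made up 84.8% of their summed counts in injured proximal tubule and 30.3% in IRI PT-S1 to S3, beside 3.76% in control PT-S1 to S3. At 2000 or more raw UMIs a cell, where Tmsb4x is lower, the share was 84.2% in injured proximal tubule, 37.4% in IRI and 8.79% in control PT-S1 to S3. In T cells it made up 35.9% in the IRI and 34.4% in the control library, in TAL 34.0% and 32.8%, and in resident macrophages 6.49% and 5.14%. The share was lower in IRI than in control in CD-IC, with 21.0% and 39.6%, and in Ccr2+ macrophages, with 14.8% and 20.7%.

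**Figure D4:**
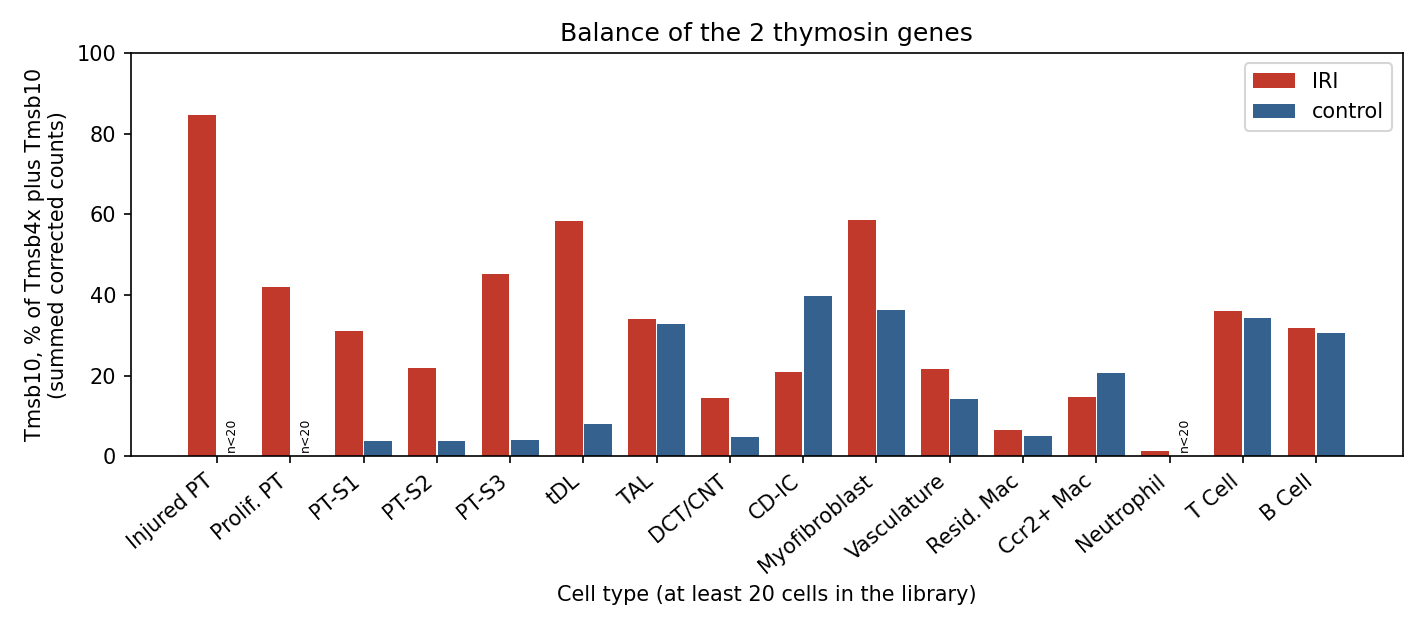
Share of Tmsb10 in the summed corrected counts of Tmsb4x and Tmsb10 (y axis, percent from 0) by cell type (x axis), with the IRI bar left of the control bar; groups of fewer than 20 cells are marked. Injured proximal tubule stands at 84.8%, and control PT-S1 to S3 between 3.72% and 3.95%.

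In proliferating proximal tubule, 155 IRI cells, no member was 2-fold higher or lower than in IRI PT-S1 to S3, beside 1.53% higher and 0.88% lower of all measured genes. Tmsb10 came nearest, with 0.768 in proliferating and 0.366 in PT-S1 to S3 cells and a log2 ratio of 0.98. In cells with at least 2000 raw UMIs it averaged 1.05 in 66 proliferating and 0.367 in PT-S1 to S3 cells, a log2 ratio of 1.39. Pfn1 was at 1.85 in proliferating and 1.28 in PT-S1 to S3 cells, opposite in direction to the injured type. The 9 members other than Tmsb10 had log2 ratios from -0.07 (Myl6) to 0.77 (Tagln2). The control library had 16 such cells, in which Tmsb10 and Anxa2 were listed at 0.

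Among the other tubule types, tDL had 8 of 10 members at least 2-fold higher in the IRI library and none lower, beside 4.97% higher and 6.4% lower of all measured genes. Among the 550 genes with a mean of at least 0.5 in the higher library, 14.5% were 2-fold higher. Tmsb10 averaged 7.17 in 440 IRI and 0.162 in 427 control cells, and Anxa2 1.39 in IRI and 0.0304 in control cells. The libraries hardly shared clusters here: cluster 9 held 420 IRI and 36 control cells, and cluster 11 held 20 IRI and 391 control cells. Within cluster 9, 4 of 10 members were 2-fold higher and 1 was lower, beside 9.86% higher and 7.45% lower of all measured genes. Tmsb10 was at 7.49 in IRI and 1.81 in control cells of that cluster, Anxa2 at 1.45 and 0.333, Tagln2 at 0.743 and 0.222, and Cfl1 at 1.53 and 0.694. Tmsb4x turned round, with 5.29 in IRI and 16.7 in control cells of cluster 9. Within cluster 11 Tmsb10 was at 0.40 in IRI and 0.0102 in control cells. The immune marker sum was 1.98 in IRI and 0.148 in control tDL cells, with 16 and 8 of 29 markers above 0, Cd79a at 0 in IRI, and Cd3e, Cd79a, S100a8 and Cd68 at 0 in control. Proximal tubule markers went the other way, with a sum of 24.2 in IRI and 93.0 in control tDL cells, the control value being as high as the 89.6 of control PT-S1 to S3. Umod, one of the TAL markers, was at 2.76 in IRI and 0.129 in control tDL cells. Spp1 was at 36.0 in IRI and 0.614 in control tDL cells. The part of these differences in the members' ratios was not tested.

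The thick ascending limb (TAL), which dilutes the urine, had Tmsb4x, Tmsb10 and Cfl1 at least 2-fold higher in the IRI library and none lower, beside 1.05% higher and 2.29% lower of all measured genes. Tmsb10 was at 0.741 in 112 IRI and 0.204 in 324 control cells, and Cfl1 at 1.01 in IRI and 0.475 in control cells. The Cfl1 call was marginal, with a log2 ratio of 1.01, and held under 4 of 9 alternatives. Anxa2 went the other way, with 0.0625 in IRI and 0.120 in control TAL cells, and the other 6 members lay between -0.01 (Myl6) and 0.94 (Actb). In the distal convoluted and connecting tubule (DCT/CNT) Tmsb10, Tmsb4x and Actb were past 2-fold and none was lower, beside 2.22% higher and 4.78% lower of all measured genes. There Tmsb10 averaged 0.873 in 63 IRI and 0.0975 in 236 control cells. The Actb call there, with a log2 ratio of 1.00, held under 4 of 9 alternatives. The other measured members lay between -0.10 (Cfl1) and 0.77 (Tagln2), and Anxa2 had too few counts to be measured. At 2000 or more raw UMIs a cell, the Actb log2 ratio was 1.17 in tDL, 1.72 in TAL and 1.17 in DCT/CNT. Intercalated cells (CD-IC), which secrete acid or base, had none of 9 measured members past 2-fold, beside 5.88% higher and 7.07% lower of all measured genes. Anxa2 had too few counts there as well. Tmsb10 was at 0.636 in 55 IRI and 0.772 in 57 control CD-IC cells, the lowest log2 ratio there at -0.26, and Tmsb4x had the highest, just under 2-fold, with 2.40 in IRI and 1.18 in control cells. Actg1 was among its highest there, at 5.80 in IRI and 3.89 in control cells. Immune marker sums were 0.688 in IRI and 0.133 in control TAL, 0.302 and 0.157 in DCT/CNT, and 0.491 and 0.228 in CD-IC, with 5 to 11 of 29 markers above 0 in each and Cd3e and Cd79a at 0 in all. Proximal tubule marker sums were 9.64 in IRI and 19.1 in control TAL, 8.78 and 19.82 in DCT/CNT, and 15.6 and 19.9 in CD-IC. Their part was not tested.

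Over the macrophage types together, 542 IRI and 326 control cells, Actb, Tmsb10, Tagln2 and Anxa2 were at least 2-fold higher in the IRI library. All 10 members had a ratio above 1, as did 59.1% of the 506 genes with a mean of at least 0.5 in the higher library. No member was 2-fold lower. All measured genes gave 2.47% higher and 2.01% lower, and the 506 genes with a mean of at least 0.5 in the higher library gave 12.6% higher. Actb averaged 16.03 in IRI and 7.83 in control macrophages, a log2 ratio of 1.03. Tmsb10 averaged 6.42 in IRI and 2.66 in control macrophages, and Anxa2 0.446 in IRI and 0.160 in control. Tmsb4x averaged 52.5 in IRI and 32.0 in control macrophages, within the 2-fold limit. The types mixed differently, since Ccr2+ macrophages were 217 of the IRI and 32 of the control cells.

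In resident macrophages alone, 306 IRI and 188 control cells, Actb, Tmsb10 and Tagln2 were at least 2-fold higher in the IRI library and none was lower, beside 6.67% higher and 3.27% lower of all measured genes. Actb averaged 12.5 in IRI and 5.46 in control cells. Tmsb4x was just inside the limit, with 41.0 in IRI and 20.8 in control cells and a log2 ratio of 0.98. Myl6 was at 1.79 in both. Depth and tubule transcripts moved with these values: the median was 799.5 raw UMIs in IRI and 599.5 in control resident macrophages, and the summed mean of 10 proximal tubule markers, all above 0, was 15.1 in IRI and 32.3 in control. Their part was not tested. Of the 188 control resident macrophages, 169 had fewer than 1000 raw UMIs, so the resident difference was not checked in deeper cells. Below 1000 raw UMIs Actb averaged 9.75 in 192 IRI and 5.31 in 169 control resident macrophages. Myl6 was above 0 in 94.3% of these IRI and 94.7% of these control cells. In IRI resident macrophages from 1000 to below 2000 raw UMIs it was above 0 in 67.6%. Its equal means thus carry the floor of shallow cells. Across all macrophages with at least 2000 raw UMIs, Actb averaged 20.2 in 272 IRI and 10.7 in 143 control cells, and Tmsb10 10.4 in IRI and 4.68 in control cells. Myl6 averaged 1.93 in the same IRI and 1.32 in the same control cells. Only 43 of these 272 IRI cells were resident macrophages, so the types are mixed here. The calls in macrophages together lie near the limit: in cells with at least 1000 raw UMIs only Anxa2 passed it, with a log2 ratio of 1.07, and Actb had 0.87, Tagln2 0.94 and Tmsb10 0.95.

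In Ccr2+ macrophages only Myl12a passed 2-fold, with 1.08 in IRI and 0.438 in control cells, and none was lower, beside 12.5% higher and 6.51% lower of all measured genes. The other 9 members had log2 ratios from -0.39 (Tmsb10) to 0.63 (Pfn1). T cells had no member past 2-fold in 97 IRI and 59 control cells, beside 2.86% higher and 3.37% lower of all measured genes. Their Tmsb4x was at 38.2 in IRI and 34.8 in control cells, Cfl1 at 2.84 and 2.93, and Pfn1 at 6.78 and 6.69. The 10 log2 ratios in T cells ran from -0.07 (Anxa2) to 0.69 (Tagln2). B cells had Tagln2 alone past 2-fold, with 0.449 in 69 IRI and 0.148 in 27 control cells, so it rests on few control counts. None of the 9 measured members was lower, beside 9.05% higher and 4.79% lower of all measured genes. A single member of 9 is near that share and is not read as a result. Anxa2 was listed at 0 in control B cells, and the other 8 members had log2 ratios from -0.43 (Myl6) to 0.79 (Actb).

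Vascular cells had Tmsb10 alone past 2-fold, with 4.83 in 96 IRI and 1.78 in 222 control cells, and none lower, beside 1.57% higher and 4.38% lower of all measured genes. The other 9 members had log2 ratios from -0.47 (Myl12a) to 0.70 (Tmsb4x) in vascular cells. Myofibroblasts, 35 IRI and 31 control cells, had Tmsb10, Actb and Cfl1 past 2-fold and none lower, beside 6.26% higher and 19.4% lower of all measured genes. Tmsb10 was at 16.6 in IRI and 4.84 in control myofibroblasts, Actb at 14.7 and 4.29, and Cfl1 at 1.83 and 0.581. The myosin light chains and Tagln2 leaned the other way there, Myl6 with 4.51 in IRI and 7.0 in control cells, Myl12a with 1.23 and 2.03, and Tagln2 with 0.543 and 0.903. The immune marker sum was 1.29 in IRI and 0.871 in control myofibroblasts, with 9 and 7 of 29 markers above 0 and Cd3e and Cd79a at 0 in both. The proximal tubule marker sum was 12.3 in IRI and 21.1 in control myofibroblasts. In vascular cells these sums were 1.07 in IRI and 0.342 in control for immune markers, and 13.0 and 22.4 for proximal tubule markers, and their part was not tested. On the list of myosins, tropomyosins and calponins, described with the other lists below, 1 of 13 measured genes was 2-fold higher in IRI myofibroblasts, Tpm3 with 0.257 in IRI and 0.0645 in control cells, and 3 were lower. Of these Myl9 was at 0.829 in IRI and 5.16 in control myofibroblasts, and Myh11, the smooth muscle myosin heavy chain, at 0.20 and 1.48.

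Counted over the 13 cell types compared, Tmsb10 was higher in the IRI library in 11 and at least 2-fold higher in 9, the exceptions in direction being CD-IC and Ccr2+ macrophages. Tmsb4x was higher in 13 of 13 and 2-fold higher in 6, and Actb higher in 13 of 13 and 2-fold higher in 4. Pfn1 and Myl6 passed 2-fold in 0 of 13. All types come from the same pair of libraries, so these counts are not independent repeats. The share of all genes higher in every type was not counted. Among genes with a mean of at least 0.5 in the higher library, 3.04% were 2-fold higher in PT-S1 and 1.35% in PT-S2. This share was 2.49% in TAL, 5.75% in DCT/CNT, 3.89% in CD-IC, 2.92% in vascular cells and 6.84% in myofibroblasts. It was 8.97% in resident macrophages, 15.1% in Ccr2+ macrophages, 2.01% in T cells and 1.21% in B cells.

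The promoters of 4 members, picked by hand, are shown. Of these Actg1, Tmsb10 and Anxa2 passed 2-fold in proximal tubule comparisons and Myl6 did not. Tmsb4x and, in PT-S3, Tagln2 passed it too and are not shown. Each line gives the 100 bases just before a RefSeq start, 5′ to 3′ (build GRCm38.p6, and 9 of the 10 members, all but Actb, had a window). Capitals mark a CArG box, the site of serum response factor, in Actg1 (chr11:120348496-120348595, minus strand) and Myl6 (chr10:128493010-128493109, minus strand). They mark GGGCGG in Tmsb10 (chr6:72958484-72958583, minus strand) and TATAAA in Anxa2 (chr9:69453583-69453682, plus strand). The marked motif was also picked by hand, and others stay in lower case. GGGCGG also occurs in the Myl6 and Anxa2 lines, and its reverse complement in the Actg1 line.
Actg1: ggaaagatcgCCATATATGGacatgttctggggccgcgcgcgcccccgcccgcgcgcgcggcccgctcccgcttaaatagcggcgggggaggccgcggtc
Myl6: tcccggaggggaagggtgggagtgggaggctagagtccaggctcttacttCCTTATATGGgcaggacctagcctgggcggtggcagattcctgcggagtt
Tmsb10: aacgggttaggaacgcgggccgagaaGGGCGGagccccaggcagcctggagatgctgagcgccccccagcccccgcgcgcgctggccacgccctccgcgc
Anxa2: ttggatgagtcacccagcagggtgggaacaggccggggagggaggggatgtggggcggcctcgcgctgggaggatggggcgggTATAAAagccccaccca

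The motifs were searched on both strands in the 250 bases before each start. A CArG box was in 1.47% of 32851 windows of that length and in windows of 2 of the 9 members, Actg1 and Myl6. TATAAA was in 12.4% of all windows and 1 of the 9 members, and GGGCGG in 32.7% of all windows and 8 of the 9. A match is a run of letters, and both genes with a CArG box differed in response: Actg1 passed 2-fold in the proximal tubule and Myl6 did not.

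Genes around the actin system were read from 12 lists of 132 genes without the members, of which 127 were in the table. The lists too were chosen with earlier results of these data known, so their counts are description only. In PT-S1 to S3, 1 of 116 measured list genes was 2-fold higher in the IRI library and 0 were lower, beside 0.41% and 0.762% of all measured genes. The list median was 0.13 beside -0.01 over all measured genes. The gene that was higher was Cyr61, a secreted target of serum response factor cofactors and YAP, at 0.201 in IRI and 0.0288 in control cells. In PT-S3 alone 8 of 105 were higher and 0 lower, beside 1.09% and 2.35% of all measured genes. Among the 8 were S100a11 with 1.42 in IRI and 0.386 in control cells, and S100a10, the partner of annexin A2, with 0.657 and 0.278. In injured proximal tubule 13 of 111 were 2-fold higher than in PT-S1 to S3 of the same library and 0 lower, beside 2.41% and 1.48% of all measured genes. Among genes with a mean of at least 0.5 in the higher group 12.7% were higher. The 13 included annexins, with Anxa3 at 0.326 in injured and 0.0350 in PT-S1 to S3 cells and Anxa5 at 0.378 and 0.0846. Cyr61 was at 0.948 in injured and 0.201 in PT-S1 to S3 cells, and moesin (Msn), which links filaments to the membrane, at 0.393 and 0.0997. Proliferating cells had 5 of 111 higher and 0 lower, beside 1.53% and 0.88% of all measured genes. Among genes with a mean of at least 0.5 in the higher group 6.34% were higher. Of the 5 list genes 4 were tubulins, with Tuba1b at 1.35 in proliferating and 0.0810 in PT-S1 to S3 cells.

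In macrophages together 12 of 96 measured list genes were 2-fold higher in the IRI library and 1 lower, beside 2.47% and 2.01% of all measured genes. Among macrophage genes with a mean of at least 0.5 in the higher library 12.6% were higher. The list median was 0.26 beside -0.05 over all measured genes. Capg, which caps filament ends in macrophages, was at 0.498 in IRI and 0.0521 in control cells, and Vim, encoding vimentin, at 1.14 and 0.390. In resident macrophages alone 17 of 78 were higher and 0 lower, beside 6.67% and 3.27% of all measured genes. The list median there was 0.55 beside 0.16 over all measured genes. Tuba1b was at 1.05 in IRI and 0.191 in control resident macrophages, and Tubb5 at 1.12 and 0.234. The sum of 4 genes of dividing cells was 0.507 in IRI and 0.0106 in control resident macrophages, and its part was not tested. T cells had 2 of 64 list genes higher, Tuba1b and Capg, and 0 lower, a share near the 2.86% of all measured genes. The dividing-cell sum was 0.247 in IRI and 0.0678 in control T cells. Myofibroblasts had 6 of 63 list genes higher and 10 lower, beside 6.26% and 19.4% of all measured genes, so no list result is read there. In tDL 42 of 110 were higher in the IRI library and 2 lower, beside 4.97% and 6.4% of all measured genes. Among tDL genes with a mean of at least 0.5 in the higher library 14.5% were higher. That comparison is of mostly different clusters. Anxa5 was at 0.593 in IRI and 0.00937 in control tDL cells, and Pdzk1, a scaffold of the proximal tubule brush border, had a log2 ratio of -2.05.

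The genes most like the members' average over the 31 groups, among 1602 with a mean of at least 0.5 in some group, were Clic1 (Pearson r 0.935), Rbm3 (0.924), Gnb2 (0.917), Tpm4 (0.888), Snrpb (0.887), Arpc1b (0.884), Psme2 (0.881), Capzb (0.878), Cdc42 (0.876) and Snrpg (0.873). Tpm4 encodes a tropomyosin, Arpc1b a subunit of the Arp2/3 complex that branches filaments, and Capzb a filament capping protein. For single members the nearest gene was Crip1 for Tmsb10 (0.887), S100a6 for Anxa2 (0.878) and Chmp4b for Actg1 (0.861). These correlations describe groups of 2 libraries that differ in depth.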

How the data were processed

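Droplet single-cell RNA was measured in 2 libraries. Per the submitters' processing notes, Cell Ranger 3.0.0, Seurat 3.2 and mm9 were used. The deposited main table is a score and not a raw count: whole-number corrected counts as SCTransform gives them, with totals per cell of 1468 to 3212 where raw UMIs run from 271 to 24680. The deposited second table is the natural log of these values plus 1, and the third gives a residual score for each of 3000 genes, as deposited. Raw counts had been planned for, so no count model was fitted. The deposited annotation has no separators. Its split matched the corrected totals of all 11759 cells, and of 3615 cells with more than 1 possible split none changed when set against depth from the residuals. Doublets were not called.

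Means per deposited type were compared with Python 3.11.15, numpy 2.4.6 and scipy 1.17.1 where both libraries had 20 cells or more of the type. Genes with under 10 corrected counts over both groups were left out. Alternatives were other scalings, pseudocounts, depth minimums, free RNA subtraction and subsets of cells. On simulated Poisson totals, the direction was right for 100% of 200 genes changed 2-fold, among 11756 genes in the proximal tubule comparison and among 8123 in the macrophage comparison. The changed genes all had a control mean of at least 0.5 and only counting noise was added, so this outcome was near certain beforehand. Variation among animals and cells, depth floors and free RNA were not simulated. Nor were changes in genes as scarce as Tmsb10 and Anxa2 in control proximal tubule. Members and lists were chosen with earlier results of these data known. All 10 members enter every comparison in which they were measured. The text names those past 2-fold and gives others singly or as a range. List genes were named if past 2-fold with a mean of at least 0.1, at most 6 each way, and the 10 genes most like the members by correlation. Spp1, Havcr1, the immune markers and the nearest genes to single members were added beside that rule.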

Additional observations from a re-analysis of the deposited data

Results flagged for a closer look

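Some members leaned in opposite directions in different cell types by more than 1.5-fold. With 1 library a group these differences were not tested. Tagln2 had a log2 ratio of IRI over control of 2.14 in tDL and -0.69 in myofibroblasts, and Myl12a 1.65 in tDL and -0.70 in myofibroblasts. Myl6 had 0.73 in PT-S3 and -0.63 in myofibroblasts. Anxa2 had 4.16 in tDL and -0.60 in TAL. In PT-S3, Myl6 had 0.37 within cluster 3 and 0.25 within cluster 4, and cluster 8 held 455 control and 4 IRI cells. The tDL ratios set cells mainly of cluster 9 in the IRI library against cells mainly of cluster 11 in the control library. Within cluster 9 the log2 ratio was 1.54 for Tagln2, -0.06 for Myl12a and 1.97 for Anxa2. The myofibroblast ratios rest on 35 IRI and 31 control cells.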

How the results depend on the processing

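These counts of members at least 2-fold higher moved by over 1.5 times. With a pseudocount of 0.5 the proximal tubule count of 3 became 0, the macrophage count of 4 became 1, B cells went to 0, tDL to 5, TAL to 1 and injured proximal tubule to 1. PT-S3 alone gave 5. Macrophages gave 2 under both the trimmed mean of log ratios and the median of gene ratios, and 1 at a depth minimum of 1000 raw UMIs. The tDL count was 5 after free RNA subtraction and 4 in cluster 9 alone, where Tmsb4x (-1.65) and Myl12a (-0.058) reversed. TAL gave 5 at both depth minimums of 1000 and 2000. CD-IC gave 1 with a pseudocount of 0.01 and 1 after free RNA subtraction. Proliferating proximal tubule gave 2 after free RNA subtraction, and 1 under each of the 3 scalings, the pseudocount of 0.01 and both depth minimums. List genes higher in macrophages, 12 at 2-fold, were 27 at 1.5-fold and 2 at 3-fold. Smaller moves included Cfl1 in TAL and Actb in DCT/CNT, each past 2-fold under 4 of 9 alternatives. A larger pseudocount shrinks ratios of scarce genes and another fold limit changes the count by construction; the cause of the other moves was not tested. Equal weighting of clusters, cluster 3 alone (4 members, in PT-S3) and cluster 9 alone were chosen after seeing the data.

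The Tmsb10 log2 ratio in the proximal tubule stayed between 0.76 and 4.07 over 14 alternatives, and that of injured over other proximal tubule cells between 2.08 and 3.75. Of 1104 member values under an alternative, 1004 kept their side of 2-fold and moved by less than 1.5-fold, 98 moved and 2 reversed. Measured by the trimmed mean of log ratios, all genes shifted by -0.18 in the proximal tubule, 0.10 in macrophages, -0.12 in tDL, 0.11 in DCT/CNT and -0.20 in myofibroblasts. The 2000-UMI minimum gave no value in B cells and myofibroblasts, where fewer than 20 cells of a library remained. No paired analysis was possible because there is 1 library a group.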
